A study of Mus musculus with 12 samples.

Results

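Enzymes that add or remove acetyl groups on histones, and those that remove methyl groups, were compared between mouse motor neuron-like NSC-34 cells with less progranulin (PGRN), with human PGRN overexpressed, and with a vector control. They were taken as all probes whose annotated symbol is Hdac, Sirt, Kat or Kdm followed directly by a number, which gave 102 of 45281 probes and 43 of 19057 annotated genes. Of these, 61 probes for 39 genes were above background on at least 4 of the 12 arrays and were tested. The genes tested were 10 of 10 zinc-dependent deacetylases, 7 of 7 sirtuins, 6 of 8 acetyltransferases and 16 of 18 demethylases. Kat14, Kat6a, Kdm4d and Kdm5d had no probe past that filter. Hdac1 had no probe annotated to it alone, so the 10 deacetylases are Hdac2 to Hdac11 and Hdac1 was not measured here.

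NSC-34 is a hybrid line made by fusing mouse neuroblastoma cells with embryonic motor neurons. The 3 groups had 4 arrays each. The knockdown line (NSC-34/shPGRN, shPGRN cells) carries a short hairpin RNA against mouse PGRN and was selected with puromycin, the overexpressing line (NSC-34/hPGRN, hPGRN cells) carries a human PGRN cDNA in pcDNA3 and was selected with G418, and control cells carry a vector only, which of the vectors not being given for these arrays. Each group is 1 stable line, sub-cultured into 4 flasks, so p-values measure the spread between flasks and not between independently made lines, and the construct, its vector and the selection cannot be told apart. All cells had 24 h in 10%, then 5%, then 1% serum before RNA was taken for Illumina MouseWG-6 BeadChips. Intensities are the deposited linear values, in arbitrary units, where about 13 marks the background limit of an array. A log2 fold change is from limma after 50 was added to background-corrected values, which shrinks the folds of dim genes, so ratios of mean deposited intensities are given beside the called changes of dim probes. In RNA from whole cultures, fewer cells that express a gene and less RNA per cell cannot be told apart.

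Acetyl groups loosen the hold of histone tails on DNA and are read by bromodomain proteins at active genes. Lysine acetyltransferases (KATs) write them, and they are removed by zinc-dependent histone deacetylases (HDACs) and by the NAD-dependent sirtuins. Lysine demethylases (KDMs) remove methyl groups with either a flavin cofactor (the KDM1 pair) or iron and alpha-ketoglutarate (the JmjC enzymes), and depending on the residue this removes an active or a repressive mark. Many of these enzymes also act on proteins other than histones, among them tubulin and transcription factors.

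The lines were checked first with Grn, the gene for PGRN. The mouse transcript had intensities of 646, 635, 665 and 502 in shPGRN cells, 922, 1273, 1043 and 956 in hPGRN cells and 896, 899, 811 and 942 in control cells. The values of shPGRN cells lay below all others (limma log2 fold change against control -0.49, SE 0.11, adjusted p = 0.00246). The human transcript of hPGRN cells is not what this probe was designed for, and mouse Grn in those cells did not pass the threshold against control (log2 fold change 0.22, SE 0.11, limma adjusted p = 0.246). Of the neuron markers, Prph, Phox2a, Isl1, Gap43, Map2 and Nefm were above background on all arrays, and Nefl on none. Each array had 19029 to 19127 probes above background in shPGRN cells, 19016 to 19067 in hPGRN cells and 18964 to 19033 in control cells. Over the enzyme genes, replicate 4 of control and replicate 2 of shPGRN cells deviated most from their group means, by 0.20 and 0.18 log2 units (root mean square), against 0.09 to 0.14 for the other arrays.

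Against control, 8 of the 39 enzyme genes passed an adjusted p of 0.05 in shPGRN cells. Kdm6a, Kdm4b, Kdm8, Kat8 and Kat2a rose and Kdm1b, Kat5 and Hdac8 fell, that is 5 genes higher and 3 lower, where 7.61% of all 10992 genes tested were higher and 7.12% lower. In hPGRN cells 4 passed against control, with Kdm6a, Kdm4b and Hdac5 higher and Kdm1b lower, where 3.84% of all genes were higher and 3.3% lower. Between the modified lines, Kat2a was higher and Kat5, Hdac5 and Hdac6 were lower in shPGRN than in hPGRN cells, where 6.98% of all genes were higher and 7.31% lower. The 39 genes had a median log2 fold change of 0.05, 0.05 and 0.00 in these comparisons, and all genes tested had -0.00, -0.00 and 0.00. Both comparisons with control use the same 4 control arrays. In all, 10 genes passed in at least 1 comparison and 29 in none. Only Kdm6a also reached 1.5-fold on the log2 scale with the offset of 50, in both lines against control. There 2.53% (shPGRN) and 1.05% (hPGRN) of all genes did. No enzyme reached it on that scale between the modified lines, where 2.48% did. By ratios of mean deposited intensities, other called changes also passed 1.5-fold. They were Kdm1b against control (0.648 in shPGRN and 0.660 in hPGRN cells) and Hdac8 in shPGRN against control (0.383). Between the modified lines they were Kat5 (0.611) and Hdac6 (0.555). The share of all genes by these ratios was not counted.

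**Figure D1:**
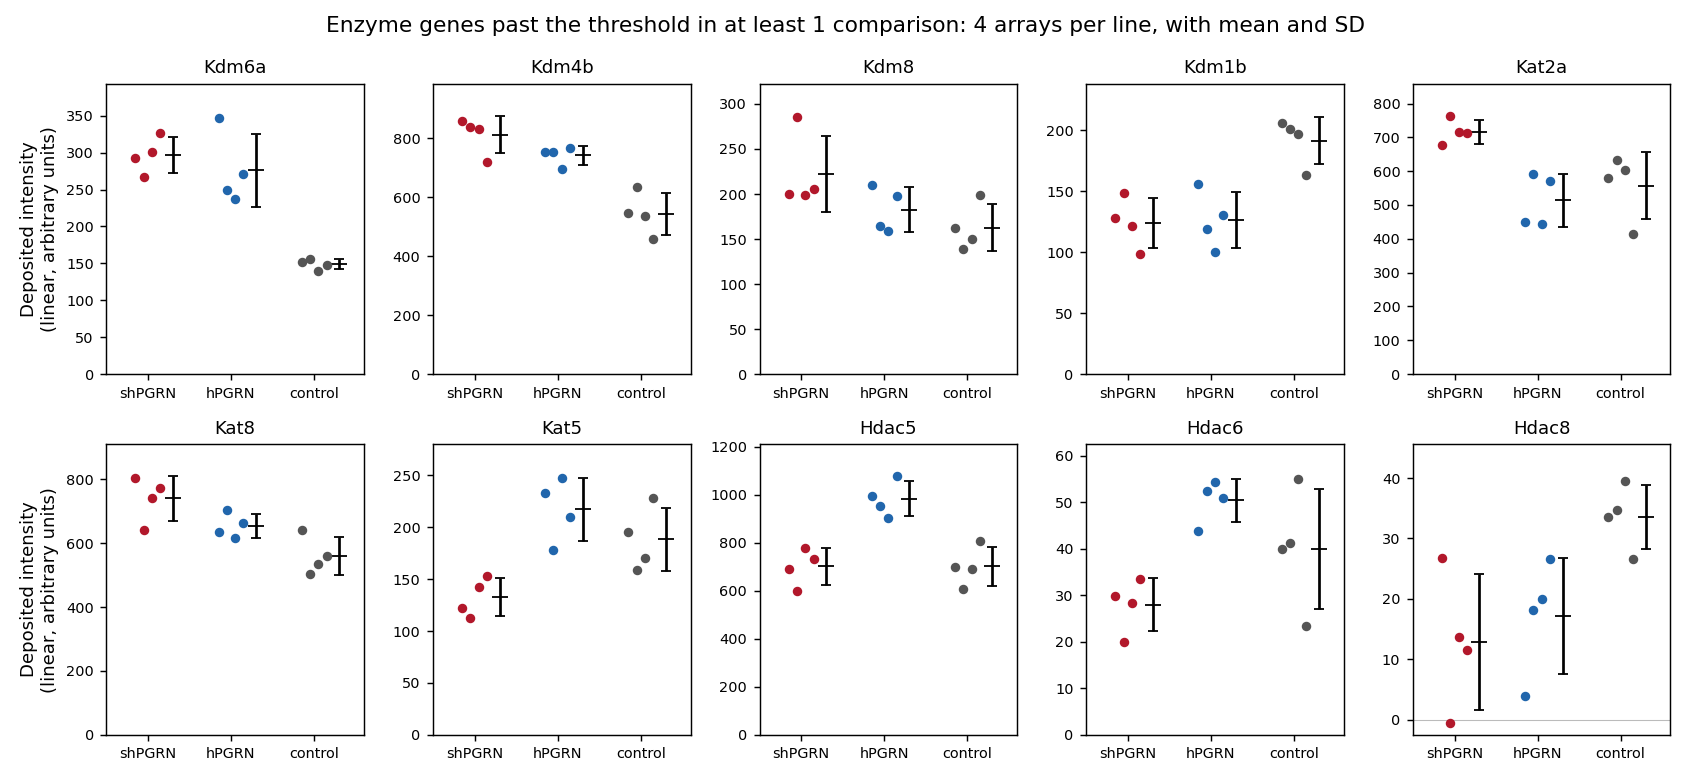
Deposited intensity (y axis, linear, from 0 or below) of the 10 enzyme genes past the threshold in at least 1 comparison, with a dot for each array of shPGRN, hPGRN and control cells and the mean and SD beside them. All 8 Kdm6a values of the modified lines, 237 and above, lie over the control values of 140 to 156, and Hdac5 is highest in hPGRN cells.

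Kdm6a had the largest log2 fold change of the enzymes in both lines against control. By the ratio of mean deposited intensities, Hdac8 (0.383 in shPGRN and 0.511 in hPGRN cells) and Kdm3b (2.39 and 2.04), both near background, lay farther from control, and of these only Hdac8 in shPGRN cells passed the test. Kdm6a encodes UTX, an X-linked JmjC demethylase that removes the repressive histone H3 mark written by Polycomb repressive complexes. Its intensities were 292, 267, 301 and 326 in shPGRN cells and 347, 249, 237 and 271 in hPGRN cells, against 152, 156, 140 and 148 in control cells. No array of a modified line overlapped with control, and the modified lines overlapped with each other. Kdm6a had a log2 fold change of 0.74 (SE 0.10, limma adjusted p = 1.48e-05) in shPGRN cells and 0.65 (SE 0.10, adjusted p = 0.00017) in hPGRN cells against control, or 1.99 and 1.85 times the control mean in deposited intensity. Between the modified lines it was 0.09 (95% interval -0.11 to 0.29). A second probe for the same transcript read 182, 183, 164 and 169 in shPGRN cells, 161, 187, 156 and 211 in hPGRN cells and 100, 78.1, 90.2 and 79.8 in control cells. It gave the same picture, with log2 fold changes of 0.63 and 0.65 against control (SE 0.09 each, adjusted p = 6.38e-05 and 0.000118 over all probes). Its paralogue Kdm6b, which encodes the inducible enzyme JMJD3 for the same mark, was at -0.01 (95% interval -0.25 to 0.23) and 0.09 (-0.15 to 0.33) in shPGRN and hPGRN cells against control.

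Kdm4b, a JmjC demethylase of the mark of heterochromatin on histone H3, also rose in both lines. Its intensities were 860, 838, 833 and 720 in shPGRN cells and 754, 754, 695 and 766 in hPGRN cells, against 546, 634, 535 and 459 in control cells. The modified lines did not overlap with control. The log2 fold changes against control were 0.53 (SE 0.10, limma adjusted p = 0.000493) and 0.41 (SE 0.10, adjusted p = 0.0094) in shPGRN and hPGRN cells. A second, dim probe for Kdm4b, with means of 76.3, 62.6 and 52.7 in shPGRN, hPGRN and control cells, did not pass (log2 fold changes 0.25 and 0.12, adjusted p = 0.197 and 0.664), and with the mean of both probes the call in hPGRN cells was lost (0.26, adjusted p = 0.0786). Of the related genes, Kdm4a had log2 fold changes of 0.22 and 0.10 and Kdm4c of -0.08 and -0.29 in the same comparisons, none of which passed.

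Kdm1b was the only enzyme lower in both lines. It encodes LSD2, a flavin-dependent demethylase of an active histone H3 mark. It read 128, 149, 121 and 98.7 in shPGRN cells and 156, 119, 100 and 131 in hPGRN cells, against 206, 201, 197 and 163 in control cells. All control values were above those of both lines. The log2 fold changes were -0.43 (SE 0.10, limma adjusted p = 0.00581) and -0.41 (SE 0.10, adjusted p = 0.0143) in shPGRN and hPGRN cells against control. The call in hPGRN cells was lost without replicate 3 of that line (-0.35, adjusted p = 0.0588). A second probe near background, with means of 20.4, 17.9 and 24.1 in shPGRN, hPGRN and control cells, did not pass, and with both probes averaged the call in hPGRN cells was lost as well (-0.26, adjusted p = 0.0525). Its paralogue Kdm1a, which encodes LSD1, a subunit of the CoREST corepressor, was at 1936 to 2173 in shPGRN cells and 2007 to 2062 in hPGRN cells, against 1540 to 1850 in control cells. These ranges do not overlap with control, but Kdm1a did not pass (log2 fold changes 0.23 and 0.22, adjusted p = 0.0768 and 0.14).

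Kdm8, which encodes the JmjC protein JMJD5, was at 199, 286, 199 and 205 in shPGRN cells, 210, 164, 159 and 197 in hPGRN cells and 162, 139, 150 and 199 in control cells. The groups overlapped, and replicate 2 of shPGRN cells was far above the rest. The log2 fold change in shPGRN cells against control was 0.32 (SE 0.11, limma adjusted p = 0.0468), and without that array 0.23 (adjusted p = 0.174). The call was also lost without each of replicates 1, 3 and 4 of shPGRN, 2 and 4 of hPGRN, and 1, 2 and 3 of control, with log2 fold changes of 0.28 to 0.36. With changes of processing included, it was lost under 17 of 24 alternatives.

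**Figure D2:**
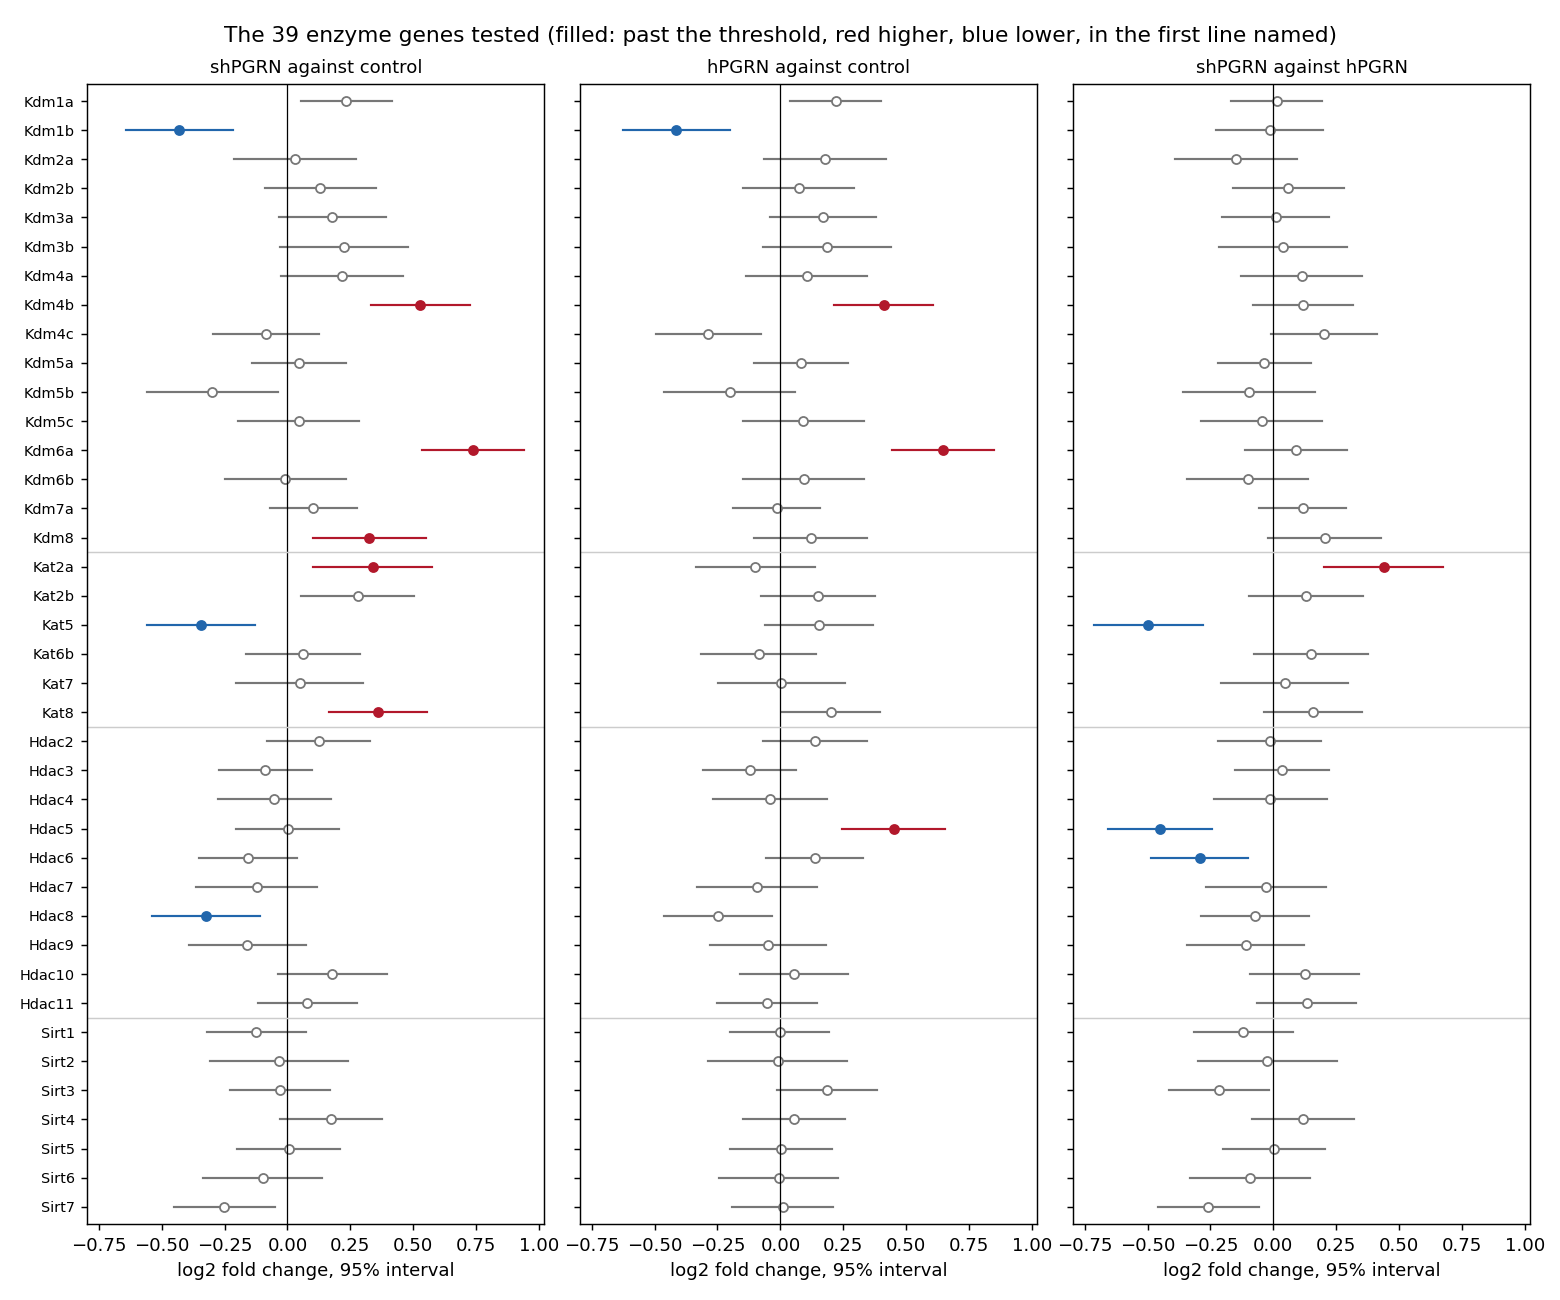
Log2 fold change (x axis) with 95% interval of the 39 enzyme genes tested, in panels for shPGRN against control, hPGRN against control and shPGRN against hPGRN cells, with grey lines between demethylases, acetyltransferases, zinc-dependent deacetylases and sirtuins. Filled points passed an adjusted p of 0.05, and Kdm6a is farthest from 0 at 0.74 and 0.65.

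Of the 6 acetyltransferases tested, Kat8 and Kat2a were higher and Kat5 was lower in shPGRN than in control cells, and none passed in hPGRN cells, where 1 had an unadjusted p under 0.05 (20.8% of all genes did). Kat5 encodes TIP60, the catalytic subunit of the NuA4 complex, which acetylates histones H4 and H2A and the kinase ATM. It read 122, 113, 143 and 153 in shPGRN cells, 233, 178, 248 and 210 in hPGRN cells and 196, 159, 171 and 228 in control cells. All 4 values of shPGRN cells lay below the other 8. Kat5 was at a log2 fold change of -0.50 (SE 0.10, limma adjusted p = 0.00201) against hPGRN and -0.34 (SE 0.10, adjusted p = 0.0274) against control cells. The call against control was lost without replicates 1 or 2 of shPGRN or 1 or 4 of control cells (-0.27 to -0.33, adjusted p at most 0.0947). A second, dimmer Kat5 probe, with means of 29.7, 61.9 and 52.9 in shPGRN, hPGRN and control cells, passed between the modified lines (log2 fold change -0.39, adjusted p = 0.0445, 0.480 of the hPGRN mean in deposited intensity) and not against control (-0.31, adjusted p = 0.128).

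Kat2a encodes GCN5, the acetyltransferase of the SAGA and ATAC coactivators. It read 676, 763, 715 and 713 in shPGRN cells, 449, 590, 443 and 571 in hPGRN cells and 579, 632, 604 and 414 in control cells. All values of shPGRN cells were above those of both other lines. This gave a log2 fold change of 0.44 (SE 0.11, limma adjusted p = 0.0109) against hPGRN and 0.34 (SE 0.11, adjusted p = 0.0485) against control cells. The call against control was lost without replicate 4 of control (0.22, adjusted p = 0.181) and without each of the 4 shPGRN arrays, replicate 4 of hPGRN and replicates 1 and 3 of control (0.31 to 0.38). With changes of processing included, it was lost under 17 of 24 alternatives. Its paralogue Kat2b, which encodes PCAF, was at 0.28 (adjusted p = 0.0902) against control and 0.13 (adjusted p = 0.493) against hPGRN cells.

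Kat8 encodes MOF, the main acetyltransferase of lysine 16 of histone H4. It read 804, 640, 742 and 773 in shPGRN cells, 634, 703, 616 and 663 in hPGRN cells and 641, 505, 535 and 560 in control cells. Between shPGRN and control cells, only replicate 2 of shPGRN, at 640, and replicate 1 of control, at 641, overlapped, and hPGRN cells overlapped with both. The log2 fold change in shPGRN cells was 0.36 against control (SE 0.09, limma adjusted p = 0.0111) and 0.16 against hPGRN cells (95% interval -0.04 to 0.35). Kat6b and Kat7, which encode MYST enzymes of the same family, had log2 fold changes of 0.06 and 0.05 in shPGRN against control cells and did not pass.

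Of the 10 zinc-dependent deacetylases, Hdac5 and Hdac6 were lower in shPGRN than in hPGRN cells. Hdac5 encodes a class IIa enzyme that shuttles between nucleus and cytoplasm on phosphorylation and represses MEF2 target genes. Its intensities were 692, 601, 780 and 732 in shPGRN cells, 996, 955, 904 and 1076 in hPGRN cells and 700, 609, 690 and 806 in control cells. hPGRN cells lay above both other lines, which overlapped. Hdac5 had a log2 fold change of 0.45 in hPGRN against control cells (SE 0.10, limma adjusted p = 0.00619) and -0.45 in shPGRN against hPGRN cells (SE 0.10, adjusted p = 0.00301), and these comparisons share the hPGRN arrays. In shPGRN against control cells it was 0.00 (95% interval -0.20 to 0.21). Of 2 further Hdac5 probes, the dimmest, with means of 76.9, 128 and 68.1 in shPGRN, hPGRN and control cells, passed in the same comparisons (-0.42 against hPGRN and 0.51 for hPGRN against control, adjusted p = 0.00977 and 0.00484). The other, with means of 440.1, 553 and 436, was at -0.30 and 0.30 and did not pass (adjusted p = 0.0993 and 0.143).

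Hdac6 encodes the cytoplasmic tubulin deacetylase. It was dim, at 29.9, 20.0, 28.3 and 33.5 in shPGRN cells, 43.8, 52.5, 54.3 and 51.0 in hPGRN cells and 40.0, 41.2, 54.9 and 23.4 in control cells. The modified lines did not overlap with each other, and each overlapped with control. For Hdac6 it was -0.29 in log2 units in shPGRN against hPGRN cells (SE 0.09, limma adjusted p = 0.0382), where the mean deposited intensity was 0.555 of that in hPGRN cells. The call was lost without each of replicates 1, 2 and 3 of shPGRN and 2, 3 and 4 of hPGRN cells (-0.25 to -0.30, adjusted p at most 0.106). Hdac8, which encodes a class I enzyme that deacetylates cohesin, read 26.8, -0.51, 13.6 and 11.5 in shPGRN cells, 3.87, 18.2, 20.0 and 26.6 in hPGRN cells and 33.6, 34.8, 39.4 and 26.6 in control cells. It was above background on only 2 of the 4 shPGRN arrays, and a single array of shPGRN cells, replicate 1, reached the control range. The log2 fold change in shPGRN against control cells was -0.32 (SE 0.10, limma adjusted p = 0.0379), where the mean deposited intensity was 0.383 of that in control cells. The call was lost without replicate 2 of shPGRN (-0.24, adjusted p = 0.139) and without each of replicates 3 and 4 of shPGRN and 1, 2 and 3 of control cells (-0.30 to -0.33).

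The other 7 deacetylases did not pass in any comparison. Hdac2, a class I enzyme of the Sin3, NuRD and CoREST complexes, was at 5993 to 7309 in shPGRN cells, 5742 to 7507 in hPGRN cells and 5704 to 6670 in control cells. Hdac3, the enzyme of the NCoR and SMRT corepressors, was at 834 to 921, 770 to 980 and 869 to 1000.2 in the same order. The class IIa genes Hdac4, Hdac7 and Hdac9 had log2 fold changes of -0.05, -0.12 and -0.16 in shPGRN against control cells and of -0.01, -0.03 and -0.11 against hPGRN cells, where Hdac5 was at -0.45. Hdac9 was above background on 2 of 4 shPGRN arrays.

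No sirtuin passed in any comparison, with 1, 0 and 2 of 7 at an unadjusted p under 0.05 in shPGRN against control, hPGRN against control and shPGRN against hPGRN cells, where 27.3%, 20.8% and 27.3% of all genes were. The lowest adjusted p was that of Sirt7, a nuclear and nucleolar deacetylase. It was at 825, 779, 769 and 825 in shPGRN cells, 937, 997, 1016 and 937 in hPGRN cells and 805, 1078, 897 and 1110 in control cells. The modified lines did not overlap (log2 fold change -0.26, 95% interval -0.46 to -0.06, limma adjusted p = 0.0784), and against control it was -0.25 (adjusted p = 0.0865). Sirt7 passed between the modified lines when only their 8 arrays were fitted or arrays were weighted, and against control without replicate 1 of control. Sirt3, the main mitochondrial deacetylase, was at -0.22 between the modified lines (adjusted p = 0.143), and Sirt1, the nuclear enzyme that deacetylates p53, at -0.12 (adjusted p = 0.46).

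Over the 29 genes that did not pass in any comparison, log2 fold changes lay between -0.30 (Kdm5b, shPGRN against control) and 0.28 (Kat2b, same comparison), and their 95% intervals between -0.56 and 0.50. Of all 39 genes, 33 had intervals within 1.5-fold in each of the 3 comparisons, on a scale that understates changes of dim genes. Across single probes, 8 of 61 passed in shPGRN against control (11.5% of all 20119 probes did), 6 in hPGRN against control (5.46%) and 7 between the modified lines (11.4%). In shPGRN against control, the kept probes of Kat2a and Kdm8 did not pass in this fit (limma adjusted p = 0.0599 and 0.0586 over all probes), though both genes did. The probes that passed include 1 for Kdm5a, a JmjC demethylase of the promoter mark on histone H3, whose gene did not pass. This probe, annotated to another transcript record than the one that stands for the gene, read 13.9, 11.5, 20.3 and 11.9 in shPGRN cells, 37.9, 54.1, 30.4 and 51.9 in hPGRN cells and 38.9, 56.5, 42.1 and 49.6 in control cells. shPGRN cells lay near background and below all other arrays (log2 fold change -0.46 against control and -0.42 against hPGRN cells, limma adjusted p = 0.00203 and 0.00467 over all probes, or 0.308 and 0.331 of their means in deposited intensity). The other probe, which has the higher mean over all 12 arrays and so stands for the gene, had means of 36.1, 38.8 and 32.6 in shPGRN, hPGRN and control cells and log2 fold changes of 0.05 and -0.04, so the probes disagree and no single level can be given for Kdm5a. In hPGRN and control cells the called probe was the brighter one (means 43.6 and 46.8, against 14.4 in shPGRN cells), and with the probe of highest variance or the mean of both the gene passed in both comparisons of shPGRN cells. Several probes of a gene can share sequence, and the probe sequences were not used here.

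**Figure D3:**
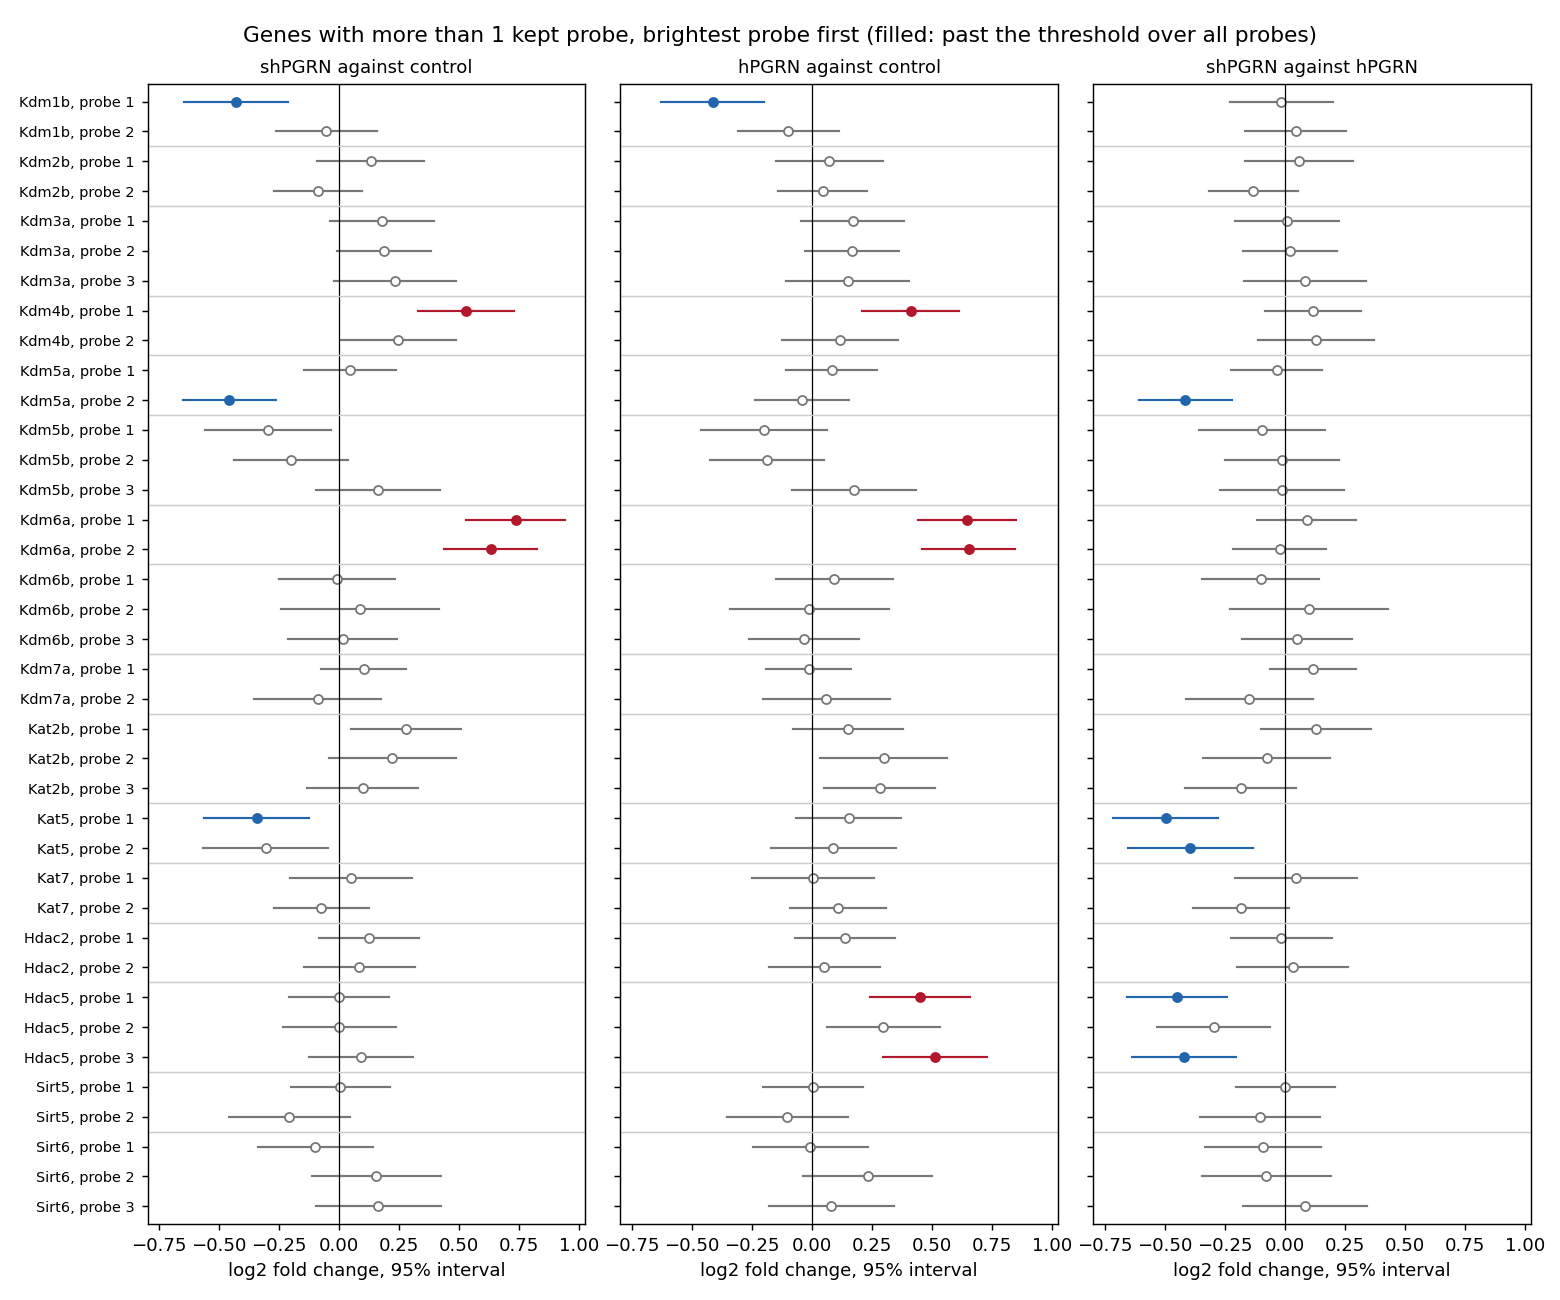
Log2 fold change (x axis) with 95% interval for every kept probe of the 16 enzyme genes with more than 1, in the same 3 comparisons, with filled points past an adjusted p of 0.05 over all probes. Both Kdm6a probes are filled against control in both lines, both Kat5 probes between the modified lines, and the Kdm5a probes disagree at -0.46 and 0.05.

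RefSeq windows around the start sites are shown for some of the genes that moved. Kdm6a and Kdm1b moved in both lines in opposite directions, and Hdac5 and Kat5 were lower and Kat2a higher in shPGRN than in hPGRN cells. A window holds 250 bases before and 50 after a start site, and 32 of the 39 genes had 1 or more (Kdm4b had none). Capitals mark matches, on either strand, to GCATGCGC (NRF1 core), CCGGAAG (ETS), GGGCGG (Sp1), CCAAT (NF-Y), TGACGTCA (CRE) and CACGTG (E-box), which do not overlap in these windows. Build GRCm38.p6, 5′ to 3′ along the gene:
Kdm6a (chrX:18162325-18162624, plus strand): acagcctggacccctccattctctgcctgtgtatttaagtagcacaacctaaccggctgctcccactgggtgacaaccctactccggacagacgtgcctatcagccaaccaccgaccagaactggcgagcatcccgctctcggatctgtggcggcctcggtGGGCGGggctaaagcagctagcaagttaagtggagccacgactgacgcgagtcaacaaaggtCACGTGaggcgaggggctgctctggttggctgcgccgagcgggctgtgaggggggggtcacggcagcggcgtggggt
Kdm1b (chr13:47043249-47043548, plus strand): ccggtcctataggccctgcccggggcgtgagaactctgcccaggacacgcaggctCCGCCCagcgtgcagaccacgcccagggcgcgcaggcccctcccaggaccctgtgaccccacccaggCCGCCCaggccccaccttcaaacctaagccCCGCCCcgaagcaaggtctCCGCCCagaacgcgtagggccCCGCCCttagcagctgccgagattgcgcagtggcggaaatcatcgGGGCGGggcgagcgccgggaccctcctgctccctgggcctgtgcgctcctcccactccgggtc
Hdac5 (chr11:102230123-102230422, minus strand): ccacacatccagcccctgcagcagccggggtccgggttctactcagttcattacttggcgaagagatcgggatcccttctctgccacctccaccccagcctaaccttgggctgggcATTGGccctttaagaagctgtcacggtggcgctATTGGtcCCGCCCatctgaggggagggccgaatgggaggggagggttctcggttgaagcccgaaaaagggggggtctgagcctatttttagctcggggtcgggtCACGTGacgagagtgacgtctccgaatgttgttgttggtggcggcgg
Kat5 window 1 (chr19:5609695-5609994, minus strand): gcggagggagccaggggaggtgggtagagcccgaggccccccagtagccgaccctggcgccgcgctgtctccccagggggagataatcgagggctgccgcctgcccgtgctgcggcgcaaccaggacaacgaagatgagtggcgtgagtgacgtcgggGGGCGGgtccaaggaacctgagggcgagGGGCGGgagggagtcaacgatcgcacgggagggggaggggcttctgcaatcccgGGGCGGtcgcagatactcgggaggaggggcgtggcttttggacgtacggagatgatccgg
Kat5 window 2 (chr19:5610045-5610344, minus strand): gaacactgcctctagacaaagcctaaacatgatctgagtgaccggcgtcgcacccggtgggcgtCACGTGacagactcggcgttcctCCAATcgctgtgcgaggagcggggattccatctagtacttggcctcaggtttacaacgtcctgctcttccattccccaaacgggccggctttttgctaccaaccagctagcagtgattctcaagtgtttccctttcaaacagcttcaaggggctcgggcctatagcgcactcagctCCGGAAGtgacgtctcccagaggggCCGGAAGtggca
Kat2a (chr11:100712418-100712717, minus strand): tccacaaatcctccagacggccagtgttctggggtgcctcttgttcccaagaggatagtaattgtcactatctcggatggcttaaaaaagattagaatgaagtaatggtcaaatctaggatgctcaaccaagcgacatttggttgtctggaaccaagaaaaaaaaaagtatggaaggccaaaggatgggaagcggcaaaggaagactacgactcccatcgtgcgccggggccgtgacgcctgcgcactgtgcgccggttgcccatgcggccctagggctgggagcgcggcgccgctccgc

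Matches are a description of letters and not of bound sites. Windows of Hdac6, which was also lower in shPGRN than in hPGRN cells, and of Hdac8, Kat8 and Kdm8 were searched too but are not printed. In the 11 windows of the 9 moved genes that had one, GGGCGG was found in 8, CCAAT in 7, CACGTG in 3, CCGGAAG in 2 and the other motifs in none. Of all 32851 windows, 35.7% held GGGCGG, 37.4% CCAAT, 7.15% CACGTG, 8.86% CCGGAAG, 2.71% GCATGCGC and 1.79% TGACGTCA. Over the 48 windows of the tested enzyme genes the shares were 58.3%, 41.7%, 10.4%, 16.7%, 4.17% and 0%. Kdm1b held GGGCGG 6 times, Kat2a held none of the motifs, and Kdm6a, Hdac5 and 1 Kat5 window each held CACGTG.

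The partners of these enzymes were counted in lists drawn up with earlier results of these data known. They are read against the 14.7% of all genes that passed, in either direction, in shPGRN against control, 7.14% in hPGRN against control and 14.3% between the modified lines. Of 28 tested subunits of HDAC corepressors, 1 was higher and 4 lower in shPGRN than in control cells (median log2 fold change 0.00), 1 was higher and 0 lower in hPGRN than in control cells (0.04), and 0 were higher and 4 lower in shPGRN than in hPGRN cells (-0.07). Zmym3, a zinc finger subunit of CoREST complexes, averaged 445 ± 45.8 in shPGRN cells, 649.5 ± 50.2 in hPGRN cells and 789.8 ± 95.4 in control cells (SD, n = 4 each), with log2 fold changes of -0.74 against control and -0.48 against hPGRN cells (limma adjusted p = 1.65e-05 and 0.0016). Brms1, Mta2 and Tbl1xr1, of the Sin3, NuRD and NCoR complexes, were lower against control (-0.35, -0.37 and -0.33), and Rcor1, the CoREST scaffold, was higher (0.31, limma adjusted p = 0.0495). Against hPGRN cells the others that were lower were Tbl1xr1 (-0.48), Brms1 (-0.32) and Gps2 (-0.27). Gps2, a subunit of the NCoR complex, was higher in hPGRN than in control cells (0.29, limma adjusted p = 0.038).

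Of 16 other subunits of NuA4, the complex of Kat5, 0 were higher and 1 lower in shPGRN against control, 1 higher and 0 lower in hPGRN against control, and 1 higher and 0 lower between the modified lines (medians 0.01, -0.04 and 0.07). Morf4l2 was lower in shPGRN than in control cells (-0.38, limma adjusted p = 0.00264), Yeats4 higher in hPGRN than in control cells (0.32, adjusted p = 0.0298), and Ruvbl1, an ATPase that several complexes share, higher in shPGRN than in hPGRN cells (0.56, adjusted p = 0.00113), where Kat5 was lower. Of 18 subunits of SAGA and ATAC, the complexes of Kat2a, 3 were higher and 1 lower in shPGRN than in control cells, 1 higher and 0 lower in hPGRN than in control cells, and 2 higher and 2 lower between the modified lines (medians -0.06, 0.01 and -0.07). Taf5l, a SAGA subunit, averaged 248 ± 16.7 in shPGRN cells, 166 ± 40.7 in hPGRN cells and 169 ± 23.7 in control cells. It was higher against both (0.44 and 0.42, limma adjusted p = 0.00782 and 0.0119). Yeats2, a subunit of ATAC, was lower against both, at 515.6 ± 36.8 in shPGRN cells, 834.9 ± 37.9 in hPGRN cells and 811 ± 113 in control cells (-0.63 and -0.58). Supt3, a SAGA subunit, was higher in both lines than in control cells (0.35 in shPGRN and 0.41 in hPGRN), and Atxn7 was lower in shPGRN than in hPGRN cells (-0.37). Taf12 was higher in shPGRN than in control cells (0.37, limma adjusted p = 0.0225) and Tada2a higher in shPGRN than in hPGRN cells (0.32, adjusted p = 0.0298). Of 14 partners of the MOF, MOZ and HBO1 acetyltransferases, 0 were higher and 2 lower, 0 higher and 1 lower, and 0 higher and 2 lower in the same 3 comparisons (medians -0.07, -0.05 and -0.01). Ing4, a reader subunit of the HBO1 complex, was lower in both lines than in control cells (-0.54 in shPGRN and -0.39 in hPGRN). Msl3, of the MSL complex of Kat8, was lower in shPGRN cells against control and hPGRN cells (-0.44 and -0.41, or 0.402 and 0.421 of their means in deposited intensity) at intensities of -4.8 to 40.8 in shPGRN cells, and Phf20, of the other Kat8 complex, was lower against hPGRN cells (-0.41).

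Among 8 other JmjC proteins, Riox1, a nucleolar oxygenase, was the only one past the threshold and fell in all 3 comparisons. It averaged 175 ± 20.5 in shPGRN cells, 244 ± 14.9 in hPGRN cells and 429.5 ± 44.7 in control cells, with log2 fold changes of -1.02 and -0.66 against control and -0.36 between the modified lines (limma adjusted p = 6.1e-08, 6.74e-05 and 0.011). The list had medians of -0.07, -0.14 and 0.10. Of 9 other acetyltransferases, 1, 0 and 2 were higher and 0 lower in the 3 comparisons (medians 0.17, 0.04 and 0.11). Clock, the circadian factor with acetyltransferase activity, was higher in shPGRN than in control and hPGRN cells (0.43 and 0.28), and Hat1, which acetylates new histones, higher than in hPGRN cells (0.35). Of 25 lysine methyltransferases, 0 were higher and 1, 0 and 3 lower (medians -0.01, 0.04 and -0.01). They were Setd7 against control (-0.36) and Kmt5b, Nsd3 and Setd7 against hPGRN cells (-0.36, -0.35 and -0.40). Of 12 acetyl-lysine readers, 0 were higher and 3, 1 and 1 lower (medians 0.00, 0.04 and -0.05). Brd9 and Pbrm1, bromodomain subunits of SWI/SNF complexes, were at -0.71 and -0.68 in shPGRN against control cells, Smarca2 at -0.38, Brd9 at -0.50 in hPGRN against control cells, and Pbrm1 at -0.81 between the modified lines.

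A further list held enzymes in the metabolism of acetyl-CoA, NAD and alpha-ketoglutarate, the cofactors of these reactions, some of which make a cofactor and others use it. Of 14 tested, 0 were higher and 3 lower in shPGRN than in control cells, and 1 higher and 0 lower in hPGRN than in control cells. Between the modified lines 0 were higher and 4 lower (medians -0.08, -0.04 and -0.09 in the 3 comparisons). Acss2, which makes nuclear and cytosolic acetyl-CoA from acetate, read 463, 491, 487 and 515 in shPGRN cells, 754, 992, 1059 and 1190 in hPGRN cells and 780, 679, 646 and 671 in control cells. It was lowest in shPGRN cells without overlap, and hPGRN and control cells overlapped in 1 array each. Acss2 had log2 fold changes of -0.92 between the modified lines (SE 0.11, limma adjusted p = 4.76e-06), -0.45 in shPGRN against control and 0.47 in hPGRN against control cells (adjusted p = 0.00655 and 0.00912). Idh1, which makes alpha-ketoglutarate in the cytosol, and Pdha1, a subunit of pyruvate dehydrogenase, were lower in shPGRN cells against control (-0.76 and -0.42) and against hPGRN cells (-0.45 and -0.37). Idh3a, a subunit of the mitochondrial NAD-dependent isocitrate dehydrogenase, was lower in shPGRN than in hPGRN cells (-0.30, limma adjusted p = 0.0388).

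Col1a1, Sox10, Olig2 and Ptprc, markers of fibroblasts, Schwann cells, oligodendrocytes and leukocytes, were above background on no array. Other genes of these lists were present. Pdgfra (fibroblasts, mean 140) and Mbp (oligodendrocytes, mean 52.3) were above background on all arrays. The filter was passed by 2 of 6 fibroblast markers and by 2 of 4 macrophage markers with a probe, where Csf1r was brightest (mean 20.7). Of 5 Schwann cell markers 3 had a probe, and only Pmp22 passed the filter. The summed intensity of that list was 641 to 760 in shPGRN cells and 735 to 903 in hPGRN cells, against 330 to 533 in control cells, so that both modified lines lay above control, as they did for Kdm6a and Kdm4b. The summed motor neuron and neuron list was 14050 to 14880 in shPGRN, 16770 to 17690 in hPGRN and 14260 to 15660 in control cells. In this sum hPGRN cells lay above both other lines, as they did for Hdac5. Sums of linear intensities weigh bright genes most, and the brightest were Prph in the neuron list and Pmp22 in the Schwann cell list. Their means over all arrays were 8690 and 645, so these sums do not show that the listed markers moved as a set. The summed fibroblast list was 152 to 250 (shPGRN), 149 to 204 (hPGRN) and 139 to 180 (control), the astrocyte and oligodendrocyte list 84.5 to 103, 56.0 to 78.8 and 75.7 to 102, and the macrophage list 39.1 to 75.5, 44.6 to 89.6 and 3.54 to 46.4. The part of these levels in the enzyme results was not tested.

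**Figure D4:**
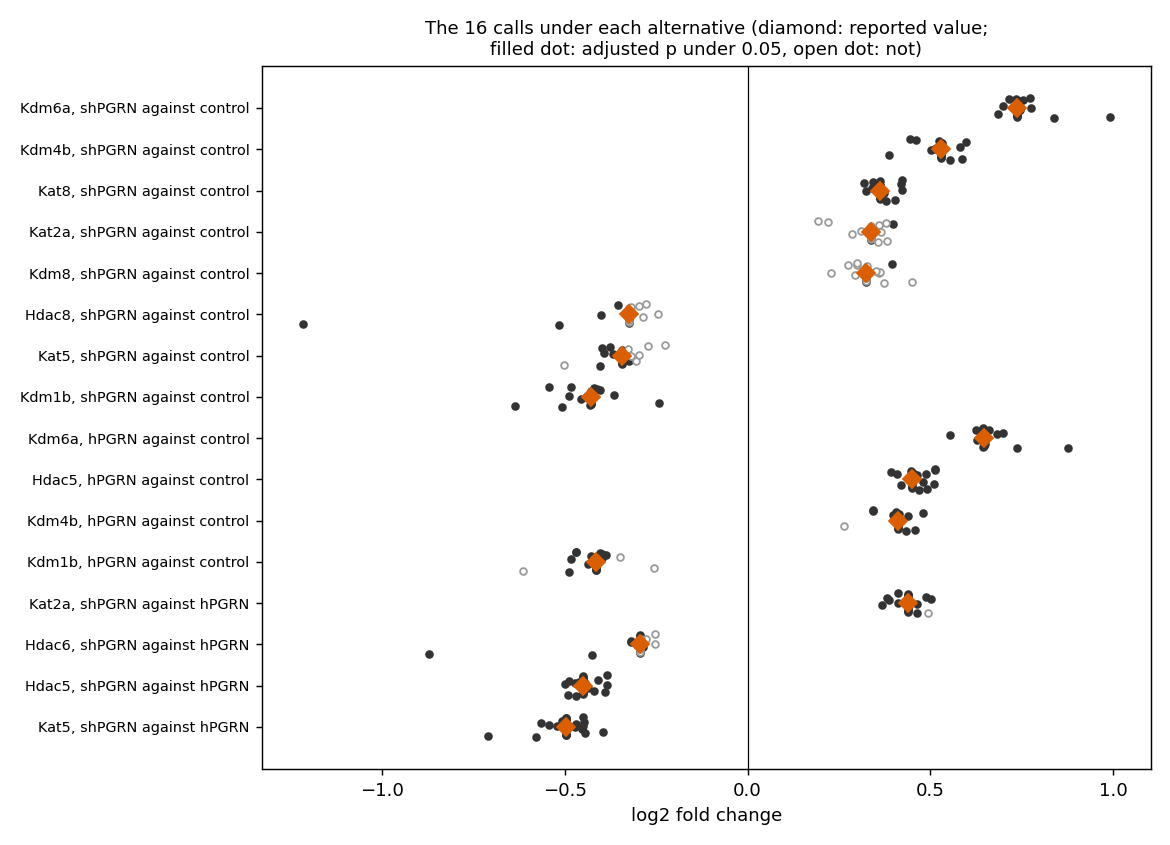
Log2 fold change (x axis) of the 16 gene and comparison pairs past the threshold, as reported (diamonds) and under each alternative processing (dots, filled where the adjusted p stayed under 0.05). Of these pairs 8 have filled dots throughout, the 1.5-fold minimum not being among the dots: Kat8, Kdm1b, Kdm4b and Kdm6a in shPGRN against control, Hdac5 and Kdm6a in hPGRN against control, and Hdac5 and Kat5 between the modified lines.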

How the data were processed

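Total RNA of 12 flasks was hybridised to Illumina MouseWG-6 BeadChips. The authors deposited linear intensities that were already background-subtracted and had the same distribution on every array, with 31.7 to 31.8% of values below 0. Their methods name lumi normalization and an empirical Bayes test in FlexArray, but the sources used here do not give the steps behind the deposited values, nor which arrays shared a chip. A second table, without normalization, has 24 columns that match no sample and was not used.

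Intensities were corrected with normexp (offset 50), quantile normalized and taken to log2 in R 4.3.3 with limma 3.58.1, so a deposited 0 becomes 72.2 before the log. A background limit of 13.0 to 13.3 was set on each array from its mode and the spread below it, and probes above it on at least 4 arrays were kept. A gene is its kept probe with the highest mean. Probes with 1 annotated symbol numbered 34885, those with several 18 and those with none 10378, and no gene was named from the last 2 kinds. One linear model per gene over all 12 arrays, with 1 coefficient for each of the lines and moderated variances, gave fold changes, 95% intervals and two-sided p-values, adjusted by Benjamini-Hochberg over all genes in each comparison and called under 0.05. Probes were fitted in the same way. The fit was tested on simulated data. Alternatives were the offset, a floor of 10 on deposited values, the filter, the choice of probe, the arrays fitted, array weights, a variance trend, the replicate block, a 1.5-fold minimum and leaving out each array. The deposited values bear no bead counts, so no counting error per probe is known, and the number of arrays limits the precision.

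Replicate numbers were not taken as pairs, since same-numbered arrays had correlations of deviations from group means of -0.161 to 0.129 over 12 pairs. Values on every array were given for enzymes past the threshold. For each list of partners, up to 3 genes with the lowest adjusted p were named, Acss2 with every array, Zmym3, Taf5l, Yeats2 and Riox1 with means and the others by fold change. Rcor1, Taf12, Tada2a, Idh3a, Tbl1xr1 and Gps2 where past those 3, the paralogues, Hdac2, Hdac3, Kdm3b, the sirtuins named and the second Kdm5a probe were chosen after their values were seen. Members and lists were chosen with earlier results of these data known. Promoter windows are from RefSeq (GRCm38.p6), matched by gene, and none was printed for genes outside those shown.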

Additional observations from a re-analysis of the deposited data

Results flagged for a closer look

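In 4 of 117 groups of 4 arrays tested (39 genes in 3 lines), 3.42%, a single array lay far from the other 3 by Dixon's test at the 95% level, and chance alone flags about 5% of such groups. Kdm8 was at 286 in replicate 2 of shPGRN cells, against 199 to 205 in the others. Kdm4b was at 695 in replicate 3 of hPGRN cells, against 754 to 766. Hdac11, the class IV deacetylase, was at 77.3 in replicate 1 of control cells, against 54.2 to 57.6. Kdm3b, a JmjC demethylase of the Kdm3 pair, was at -2.16 in replicate 2 of control cells, where the other 3 were above background and at most 16.3. Kdm8 is the one of these whose call was lost without the array (log2 fold change 0.23, limma adjusted p = 0.174).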

How the results depend on the processing

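Of the 16 calls, 8 held under all 24 alternatives other than the 1.5-fold minimum and 8 were lost under at least 1 (Hdac8 had 23, not being above background on all 12 arrays). No direction turned, and none of the 14 other pairs of these genes and comparisons was called under any. In shPGRN against control, 5 genes in place of 8 passed with deposited intensities at a floor of 10, with no filter on dim probes, with the probe of highest variance and with the replicate block. All 4 lost Kat2a and Kdm8, all but the floor lost Hdac8, and the floor and the probe of highest variance lost Kat5. Kat2a and Kdm8 were each lost in this comparison under 17 of the 24 alternatives. Among these were an offset of 16, fitting only the 8 arrays of the 2 groups, and array weights. Genes gained under single alternatives were Kdm1a, Kdm5a, Kdm5b, Kat2b and Sirt7 there, Kdm5b in hPGRN against control, and Kdm5a and Sirt7 between the modified lines. Leaving out 1 array gave 4 to 8 there, with 4 without replicate 2 of shPGRN and 5 without replicate 1, 3 or 4 of shPGRN or 1 or 3 of control. In hPGRN against control, 2 in place of 4 passed with the mean of a gene's probes, 4 with the replicate block and 3 to 5 without 1 array. Between the modified lines 4 became 3 with the replicate block, which lost Hdac6, and 3 to 4 without 1 array. Hdac6 was also lost there with no filter on dim probes, with the probe of highest variance and with a variance trend. In all, its call was lost under 11 of 24 alternatives. A 1.5-fold minimum on the log2 scale left 1, 1 and 0 genes in the 3 comparisons, so of the 16 calls only those of Kdm6a. In the last comparison 6 of 39 were at an unadjusted limma p under 0.05 (27.3% of all genes were). Without both replicate 2 of shPGRN and replicate 4 of control, an alternative chosen after seeing the data, 6, 6 and 3 passed, with Kat2a, Kdm8, Kat5 and Hdac8 lost and Kat2b and Kdm5b gained in the first comparison, Kdm5b and Kdm4c gained in the second and Hdac6 lost in the last. Kat2a between the modified lines was lost only with the floor of 10 (0.49, adjusted p = 0.0559). The cause of these losses was not tested. Dim genes such as Hdac6, Hdac8 and Hdac9 lie near background, where folds are understated.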
